A study of Mus musculus with 27 samples.

Results

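The collagen chain genes of mouse liver are described here, taken as every protein-coding gene whose symbol is Col, a type number, the letter a and a chain number. The count table of 55414 genes held 44 of them, and all 44 were kept. Averaged over the libraries, 27 reached 10 counts and were tested. The other 17 were below that minimum and were not tested. The choice used names alone and no measured value.

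Whole livers of 27 mice were sequenced to ask how inhibitors of hyaluronan synthesis alter the response of the liver to carbon tetrachloride (CCl4), a hepatotoxin. All mice were female Balb/c of 8 weeks. CCl4 was injected into the peritoneum over 2 weeks in 14 mice, and the other 13 received olive oil. The untreated groups were control (n = 4, also given PBS by tail vein) and CCl4 (n = 2). The 4MU (n = 3) and CCl4 + 4MU (n = 4) mice received daily gavage of 4-methylumbelliferone, an inhibitor of hyaluronan synthesis, at 600 mg/kg in carboxymethylcellulose. The siHAS2-LNP (n = 3) and CCl4 + siHAS2-LNP (n = 4) mice received lipid nanoparticles with an siRNA against hyaluronan synthase 2 by tail vein, first at 1 mg/kg and then at 0.5 mg/kg. The siLuc-LNP (n = 3) and CCl4 + siLuc-LNP (n = 4) mice received the same particles with an siRNA against luciferase, a gene the mouse lacks. The CCl4 group rests on 2 mice, and its label names no gavage or tail vein vehicle.

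Collagens are the main proteins of the extracellular matrix. Each molecule is a helix of α chains, either copies of the same chain or a fixed mixture of different chains, so that some chains are only used together. Fibrillar collagens (types I, II, III, V, XI, XXIV and XXVII) build fibres. In injured liver types I and III are made largely by activated hepatic stellate cells and portal fibroblasts. Type IV forms the network of basement membranes, type VI forms beaded filaments around cells, and the fibril-associated collagens decorate fibres. Types XV and XVIII are multiplexins of basement membrane zones, and the C-terminal fragment of the type XVIII chain is endostatin.

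The sequence before a RefSeq start is shown for 4 genes that carry the account that follows. Col1a2 encodes the α2 chain of type I collagen and Col3a1 the chain of type III collagen. Col4a5 and Col27a1 are genes whose levels separated the CCl4 mice from the others completely, the former upwards and the latter downwards. The bases are from RefSeq start sites (table on GRCm38.p6) and were located by exact match in GRCm39, the build of the counts. Each stretch lies within 250 bases before that start and outside annotated exons. By the gene positions used below, the Col1a2 and Col27a1 stretches lie inside the gene, whose annotated start is at chr6:4504814 and chr4:63132241. They run 5′ to 3′ on the strand of the gene, here the plus strand for all 4, at chr6:4505370-4505492, chr1:45350448-45350697, chrX:140258165-140258353 and chr4:63133399-63133648. Capitals mark a CCAAT box, a TATA box spelled as TATAAA, or a GC box spelled as GGGCGG, each searched on both strands, and no marked motif overlaps another.
Col1a2: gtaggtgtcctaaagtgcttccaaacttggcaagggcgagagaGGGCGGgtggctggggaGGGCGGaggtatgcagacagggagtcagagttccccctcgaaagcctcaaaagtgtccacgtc
Col3a1: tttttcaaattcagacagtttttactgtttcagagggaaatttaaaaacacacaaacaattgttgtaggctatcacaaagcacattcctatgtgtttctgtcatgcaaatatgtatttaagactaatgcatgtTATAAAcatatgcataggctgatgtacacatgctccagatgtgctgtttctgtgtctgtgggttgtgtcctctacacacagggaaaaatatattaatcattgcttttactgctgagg
Col4a5: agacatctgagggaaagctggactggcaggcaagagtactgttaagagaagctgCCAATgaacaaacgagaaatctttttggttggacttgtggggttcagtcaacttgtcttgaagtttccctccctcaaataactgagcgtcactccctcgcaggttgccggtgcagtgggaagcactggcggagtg
Col27a1: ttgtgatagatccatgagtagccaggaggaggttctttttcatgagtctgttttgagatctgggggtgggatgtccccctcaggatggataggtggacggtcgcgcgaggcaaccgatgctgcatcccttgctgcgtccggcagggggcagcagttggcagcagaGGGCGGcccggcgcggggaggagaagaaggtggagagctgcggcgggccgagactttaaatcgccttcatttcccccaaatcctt

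The Col1a2 stretch held GGGCGG at 205 and 188 bases before the start, and the Col27a1 stretch held it at 85 bases. The Col3a1 stretch held TATAAA at 117 bases and the Col4a5 stretch held CCAAT at 196 bases before the start. RefSeq gave 38 windows for 35 of the collagen symbols. Over the full 250 bases, GGGCGG was in 22 of 38 collagen windows (57.9%) and in 32.7% of all 32851 windows. CCAAT was in 13 (34.2%) against 33.8%, and TATAAA was in 5 (13.2%) against 12.4%. These are matches of letters only.

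Libraries held 7044386 to 29425937 counts, the lowest in CCl4 + siHAS2-LNP mouse 4. Levels are given in CPM, counts scaled to a common library total by edgeR. Log2 fold changes, standard errors (SE) and adjusted p-values are from edgeR's quasi-likelihood test over 14114 genes with Benjamini-Hochberg adjustment at 0.05. No label states that mice are littermates or that a number pairs them. The target of the siRNA, Has2, had 0 counts in 25 libraries, 2 in CCl4 mouse 2 and 1 in CCl4 + siLuc-LNP mouse 4, so its knockdown could not be checked at this depth. Hepatocyte markers were abundant in all libraries, and the summed levels of 4 adipocyte, 5 cartilage and bone and 5 pancreatic acinar genes did not exceed 0.214 CPM. CCl4 + 4MU mouse 4 stood apart. Its 5 cholangiocyte genes summed to 122 CPM and its 5 smooth muscle genes to 46.9 CPM, against at most 23.4 and 21.6 in every other mouse. CCl4 mouse 2 had the lowest hepatocyte sum (72400 CPM) and the highest sum of 5 myofibroblast genes (79.0 CPM) of all mice.

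By far the most abundant collagen transcript of the liver was Col18a1, the multiplexin chain. It had 1060 ± 194 CPM (SD, n = 4) in control and lay between 603 and 1460 CPM in all 27 mice. Levels of different genes were compared per kb of the canonical transcript. In control mice Col18a1 stood at 190 CPM per kb, 85.6% of the summed group means over all 44 genes. It was followed by Col14a1, a fibril-associated collagen, at 5.61, Col3a1 at 4.33, Col4a1 at 3.19, Col5a3 at 2.58 and Col1a2 at 2.22 CPM per kb. Col1a2 ranked above Col5a3 in the siLuc-LNP and siHAS2-LNP groups, where Col1a2 was at 3.94 and 3.01 and Col5a3 at 2.19 and 2.74 CPM per kb.

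In the CCl4 group the order was different. Col18a1 was first at 130 CPM per kb, now 40.8% of the sum, and was followed by Col3a1 at 44.4, Col1a2 at 40.5, Col1a1 at 36.0, Col4a1 at 17.4 and Col4a2 at 10.3. The pair of type I chains together stood at 3.01 ± 0.962 CPM per kb (SD, n = 4) in control and at 76.5 ± 30.5 (n = 2) in CCl4 mice. They reached 30.4 ± 18.0 in CCl4 + 4MU, 55.8 ± 32.6 in CCl4 + siLuc-LNP and 22.5 ± 6.38 in CCl4 + siHAS2-LNP mice (n = 4 each). Type IV chains together moved from 5.68 ± 1.44 in control to 30.4 ± 10.2 in CCl4 mice, and type VI chains from 2.92 ± 0.717 to 14 ± 7.81.

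**Figure D1:**
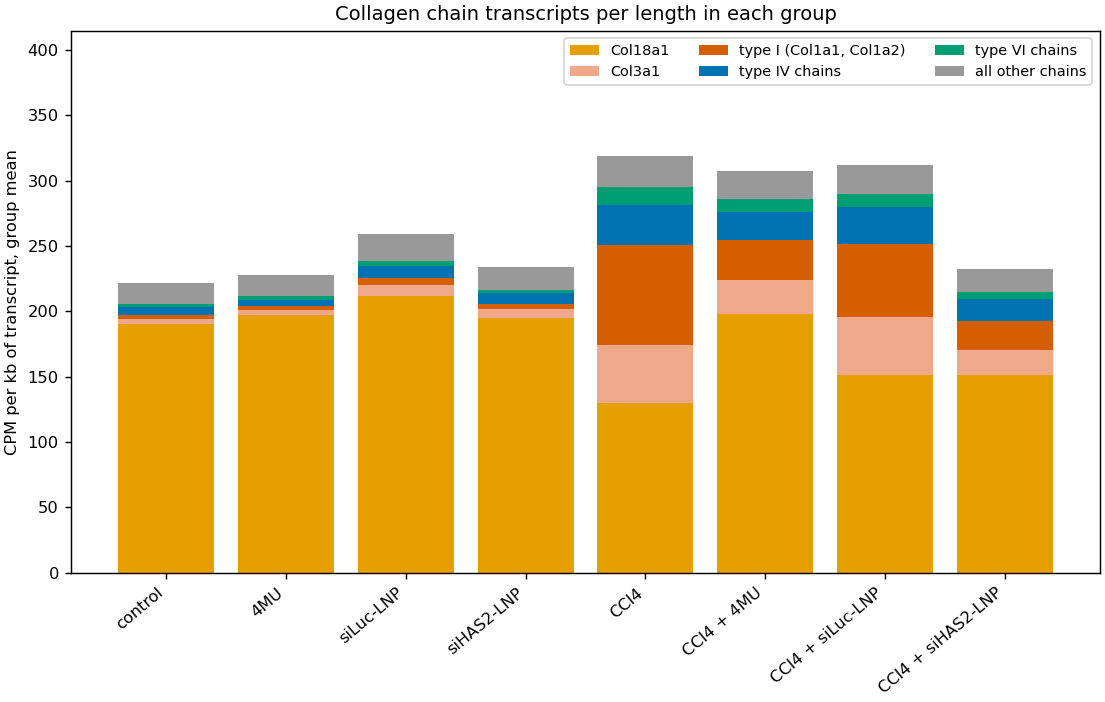
Group means of collagen chain transcripts, as CPM per kb of transcript, stacked by chain for the 8 groups (n = 2 to 4 mice). Col18a1 fills 85.6% of the control bar and 40.8% of the CCl4 bar, and the type I and Col3a1 parts are visible in the CCl4 groups.

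The first question was which chains differ between mice with and without CCl4, taken as the mean of the CCl4 effect over the untreated, 4MU, siLuc-LNP and siHAS2-LNP arms. Of the 27 tested collagen genes, 17 were higher and 4 lower after CCl4. Over all tested genes 26.3% were higher and 25.6% lower. The median log2 fold change of the 27 was 1.23, and that of all genes was -0.02. The genes that rose were of the fibrillar (5 of 8 tested), type IV (5 of 5), type VI (4 of 5) and fibril-associated (2 of 4) classes, with Col8a1, a short chain network collagen, beside them. In bulk liver, a change in the number of cells of a type and a change in RNA per cell cannot be told apart.

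Col1a1 and Col1a2 encode the α1 and α2 chains of type I collagen, the main fibre of scar. Col1a1 (ENSMUSG00000001506, chr11:94827050-94843868, plus strand) was at 3.66, 2.60, 6.32 and 6.21 CPM in the 4 control mice and at 154 and 273 CPM in the 2 CCl4 mice. Over all mice it ranged from 2.25 to 15.7 CPM without CCl4 (median 6.32) and from 30.4 to 277 CPM with it (median 84.0). No CCl4 mouse overlapped with any other mouse. It rose by 4.06 on the log2 scale (SE 0.29, adjusted p = 1.93e-11), the largest rise among the 27.

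Col1a2 (ENSMUSG00000029661, chr6:4504814-4541555, plus strand) was at 10.3, 7.97, 16.2 and 13 CPM in control and at 155 and 279 CPM in CCl4 mice. It ranged from 6.46 to 28.3 CPM without CCl4 (median 15.2) and from 36.8 to 283 CPM with it (median 101), again without overlap. It rose by 3.02 (SE 0.24, adjusted p = 1.73e-10). Col3a1 (ENSMUSG00000026043, chr1:45350698-45395840, plus strand), the chain of type III collagen, was at 18.8, 15.8, 33.6 and 28.1 CPM in control and at 196 and 297 CPM in CCl4 mice. It rose by 2.53 (SE 0.23, adjusted p = 1.94e-09). For Col3a1, 13 of 14 CCl4 mice lay above the highest of the others (61.7 CPM). The exception was CCl4 + 4MU mouse 4 at 54.9 CPM, the mouse with high cholangiocyte and smooth muscle markers.

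Type V chains enter fibres with type I. Col5a2 was between 2.05 and 4.79 CPM without CCl4 and between 8.51 and 48.5 CPM with it, with no overlap, and rose by 2.63 (SE 0.18, adjusted p = 1.63e-11). Col5a1 rose less, by 1.31 (SE 0.15, adjusted p = 7.80e-08), from a median of 7.62 to a median of 17.0 CPM, and 11 of 14 CCl4 mice lay above all others. The third type V chain gene, Col5a3, went the other way. It fell by 0.38 (SE 0.15, adjusted p = 0.0416), its ranges overlapped (8.24 to 20.7 CPM without and 3.88 to 23.9 CPM with CCl4), and the call was lost when 14 CCl4 mice were set against 13 others without arms (log2 fold change -0.16), with the replicate number as a block (-0.35), and when any of 12 single mice was left out.

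Col27a1 (ENSMUSG00000045672, chr4:63132241-63253228, plus strand), the chain of the fibrillar collagen XXVII, known from cartilage, was at 10, 13.1, 15.8 and 11.4 CPM in control and at 4.96 and 4.41 CPM in CCl4 mice. It was between 10 and 21.8 CPM in the 13 mice without CCl4 and between 4.00 and 7.76 CPM in the 14 CCl4 mice, so every CCl4 mouse was below every other mouse. It fell by 1.65 (SE 0.12, adjusted p = 2.10e-11). Its fall was seen in each arm, by 1.42 in the untreated, 1.75 in the 4MU, 1.95 in the siLuc-LNP and 1.49 in the siHAS2-LNP arm. Col11a2, a chain of type XI collagen, had a log2 fold change of 0.14 (SE 0.19, adjusted p = 0.559).

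Complete separation of the 14 CCl4 mice from the 13 others was seen for 7 of the 27 genes. Col1a1, Col1a2, Col5a2, Col4a2, Col4a5 and Col6a3 were higher in all 14, a pattern found in 3.21% of all tested genes. Col27a1 was lower in all 14, which held for 1.37% of all tested genes.

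**Figure D2:**
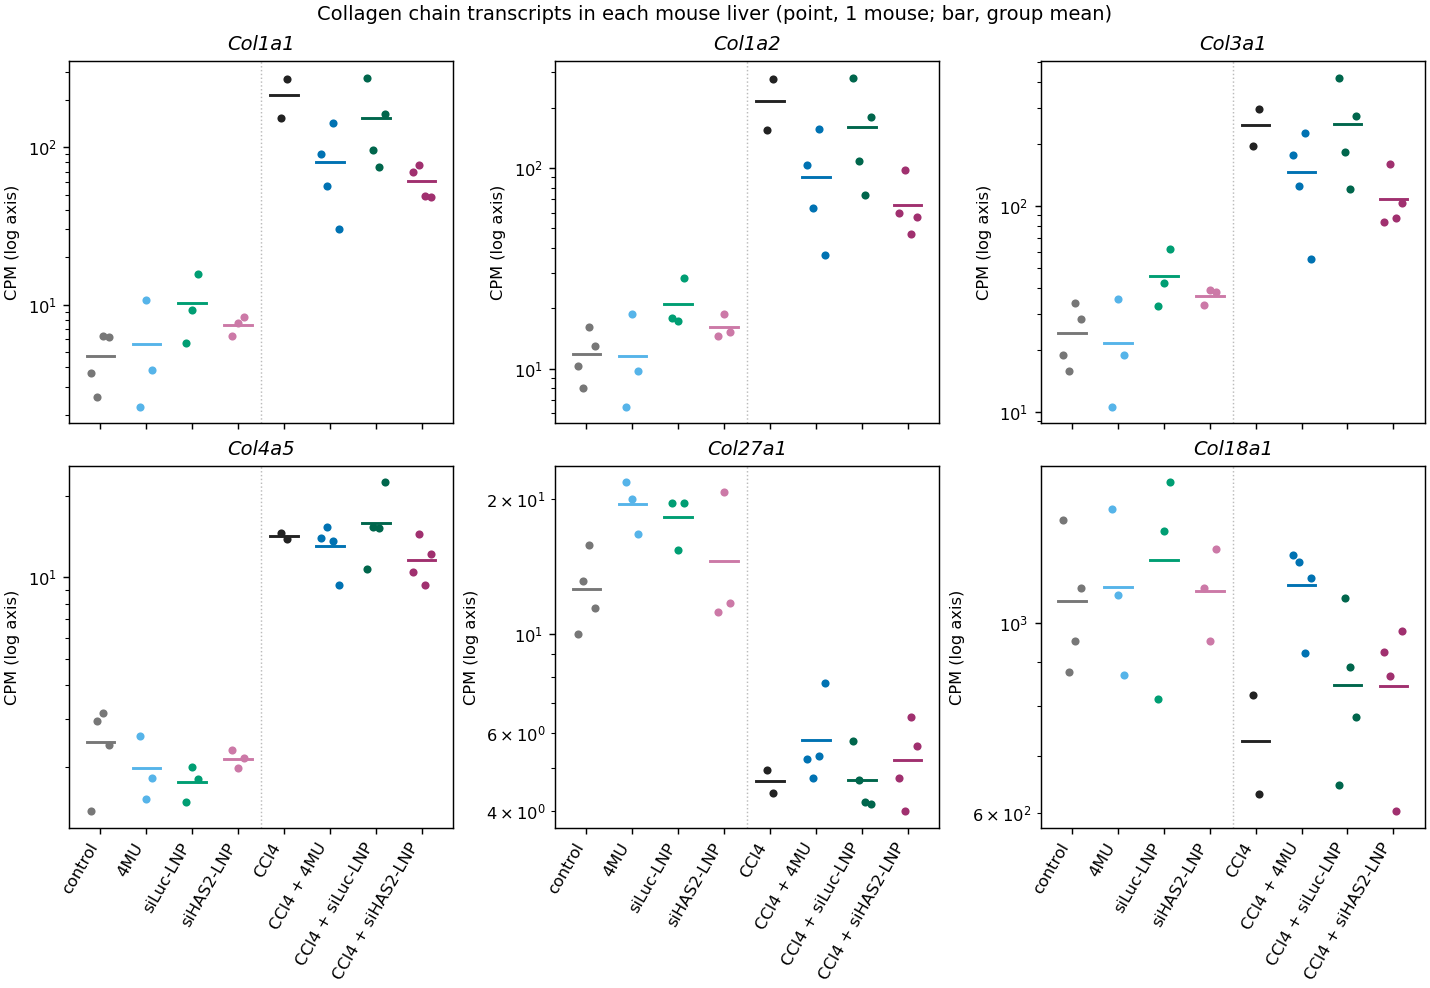
CPM on a log axis for 6 collagen genes in each of 27 mice by group, with bars at group means. Col1a1, Col1a2 and Col4a5 lie higher in all 14 CCl4 mice, to the right of the dotted line, than in the 13 others. Col27a1 lies lower in all of them, and Col18a1 overlaps.

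All 5 tested type IV chains rose. Col4a1 and Col4a2, the chains of the type IV collagen found in nearly all basement membranes, rose by 1.76 (SE 0.14, adjusted p = 2.14e-10) and 1.78 (SE 0.13, adjusted p = 3.97e-11). Col4a1 was at 24.3, 12.4, 22.2 and 25.4 CPM in control and at 84.5 and 146 CPM in CCl4 mice. Col4a2 was at 14.9, 7.85, 15.5 and 15.9 CPM in control and at 50.5 and 88.8 CPM in CCl4 mice. The type IV genes lie in head-to-head pairs. Col4a1 and Col4a2 share 311 exon bases on opposite strands of chromosome 8, and Col4a3 and Col4a4 share 159 on chromosome 1. As the strand setting of the counting was not stated, reads in these bases are uncertain.

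Col4a5 (ENSMUSG00000031274, chrX:140258354-140472231, plus strand), a chain of the specialised basement membranes of kidney and other tissues, was at 1.37, 2.95, 3.16 and 2.41 CPM in control and at 14.6 and 13.8 CPM in CCl4 mice. Over all mice it was between 1.37 and 3.16 CPM without CCl4 and between 9.36 and 22.4 CPM with it, and no mouse overlapped. It rose by 2.71 (SE 0.14, adjusted p = 4.64e-14), the lowest adjusted p of the 27 genes. Its neighbour Col4a6, head to head with it at a gap of 1281 bases, stayed at or below 0.117 CPM in all 27 mice. Col4a3 and Col4a4, its partners in those membranes, rose by 1.23 (SE 0.34, adjusted p = 0.00373) and 1.51 (SE 0.28, adjusted p = 0.0001), at levels of at most 3.80 and 2.38 CPM.

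Of the type VI chains, Col6a3 rose by 2.51 (SE 0.19, adjusted p = 8.96e-11). It was at 3.00, 2.54, 5.34 and 4.58 CPM in control and at 29.5 and 57.7 CPM in CCl4 mice, and its ranges over all mice (2.54 to 6.68 and 10.7 to 57.7 CPM) did not overlap. Col6a1 and Col6a2, which join Col6a3 in the common type VI molecule, rose by 1.40 (SE 0.18, adjusted p = 5.64e-07) and 1.6 (SE 0.15, adjusted p = 3.83e-09). Col6a6 rose by 1.07 (SE 0.26, adjusted p = 0.00125) at no more than 2.70 CPM, and it shares 133 exon bases with the more abundant Pik3r4 on the opposite strand. Col6a5 had a log2 fold change of 0.32 (SE 0.35, adjusted p = 0.462).

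Among fibril-associated chains, Col12a1 rose by 1.48 (SE 0.19, adjusted p = 4.78e-07) and Col16a1 by 0.96 (SE 0.17, adjusted p = 3.87e-05). Col20a1 fell by 1.29 (SE 0.15, adjusted p = 1.12e-07). It was at 7.94, 9.86, 7.30 and 8.59 CPM in control and at 1.61 and 0.904 CPM in CCl4 mice. Col20a1 shares 91 exon bases with 9230112E08Rik on the same strand, and reads there cannot be assigned with certainty. Col14a1, the most abundant fibril-associated chain, had a log2 fold change of 0.17 (SE 0.13, adjusted p = 0.270) and ranges of 17.7 to 88.7 CPM without and 32.6 to 69.7 CPM with CCl4.

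Of the remaining classes, Col8a1 rose by 1.15 (SE 0.34, adjusted p = 0.00713), at levels of at most 3.73 CPM. Col18a1 (ENSMUSG00000001435, chr10:76888012-77002390, minus strand) was at 1320, 877, 953 and 1100 CPM in control and at 825 and 632 CPM in CCl4 mice. It fell by 0.35 (SE 0.11, adjusted p = 0.0125), a change smaller than its spread between mice, since 816 to 1460 CPM without CCl4 overlapped with 603 to 1200 CPM with it. Slc19a1 shares 896 of its exon bases on the opposite strand. The other multiplexin, Col15a1, and the transmembrane collagens Col13a1 and Col17a1 did not pass the test, with log2 fold changes of 0.46 (SE 0.22), 0.44 (SE 0.20) and 0.41 (SE 0.26).

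**Figure D3:**
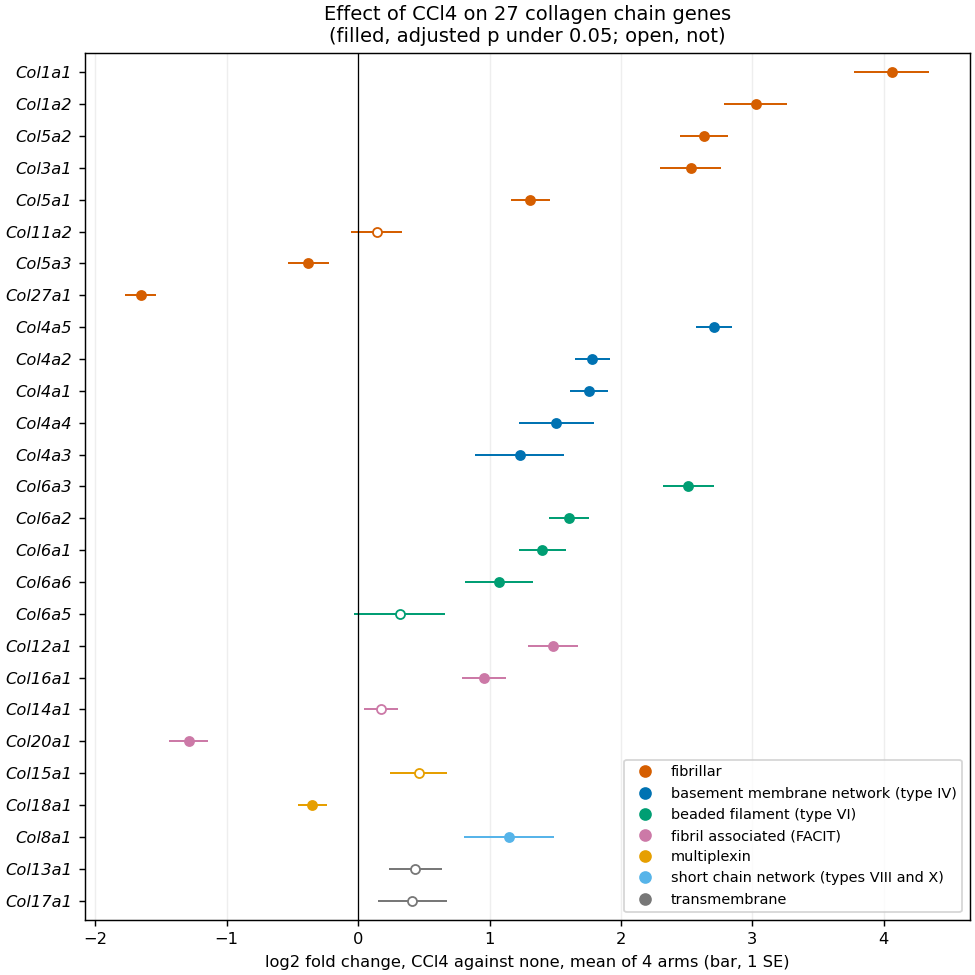
Log2 fold change of CCl4 against no CCl4, mean of 4 arms, for the 27 tested collagen genes, with bars of 1 SE and colours for class. Filled points passed an adjusted p of 0.05. Col1a1 lies highest at 4.06 and Col27a1 lowest at -1.65.

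Markers of several cell types moved with these genes. All 3 tested myofibroblast genes, 6 of 7 portal fibroblast and mesothelium genes, 4 of 4 smooth muscle genes and 4 of 4 cholangiocyte genes were higher in the mean CCl4 effect. In CCl4 against control these were 2 of 3, 5 of 7, 2 of 4 and 1 of 4. The mean takes in CCl4 + 4MU mouse 4, which had the highest cholangiocyte and smooth muscle sums of all mice. The sum of 5 myofibroblast genes (Acta2, Tagln, Timp1, Postn and Cthrc1) was 6.25 to 20.0 CPM in mice without CCl4, 24.6 to 79.0 in CCl4, 19.6 to 34.3 in CCl4 + 4MU, 24.7 to 48.5 in CCl4 + siLuc-LNP and 11.9 to 17.4 in CCl4 + siHAS2-LNP mice. The 34.3 CPM was in CCl4 + 4MU mouse 4, with Acta2 at 23.2 CPM. Postn made up most of the sum in CCl4 + siHAS2-LNP mice (7.34 to 13.9 CPM) and overlapped with mice without CCl4 (5.64 to 18.6), as did Acta2 (1.07 to 4.38 and 0.256 to 4.56). Timp1 did not overlap there, at 1.57 to 2.27 and 0.0404 to 0.399 CPM. The sum of 9 stellate cell genes overlapped between mice without CCl4 (168 to 303 CPM) and with it (123 to 379 CPM), although 3 of the 9 genes were higher and 4 lower. Reln was at 27.7 to 88.2 CPM without and 58.1 to 213 CPM with CCl4, and Ecm1 at 69 to 157 and 21.8 to 112 CPM. All 14 genes were detected in each CCl4 group, while Cthrc1 was at 0 in every mouse without CCl4, and their part in the collagen levels was not tested.

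Within the arms the count of genes that passed was different, with 2 to 4 mice a group. CCl4 against control gave 16 higher and 3 lower of 27 (18.0% and 16.1% of all genes). CCl4 + 4MU against 4MU gave 15 and 2 (13.2% and 10.5%), CCl4 + siLuc-LNP against siLuc-LNP gave 12 and 2 (13% and 11.2%), and CCl4 + siHAS2-LNP against siHAS2-LNP gave 9 and 1 (7.74% and 5.09%). The last count was 5 higher and 1 lower without siHAS2-LNP mouse 2, and the shares of all genes in that fit are not given here. Col1a1, Col1a2, Col3a1, Col4a1, Col4a2, Col4a5, Col5a2, Col6a2 and Col6a3 rose in all 4 arms.

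The log2 rise of Col1a1 was 5.49 (SE 0.58, adjusted p = 9.37e-08) in the untreated arm. It was 3.82 (SE 0.57, adjusted p = 3.14e-05) with 4MU, 3.89 (SE 0.57, adjusted p = 1.90e-05) with siLuc-LNP and 3.04 (SE 0.55, adjusted p = 0.000549) with siHAS2-LNP. For Col1a2 the rises in the same order were 4.19 (SE 0.49, adjusted p = 4.65e-07), 2.96 (SE 0.48, adjusted p = 8.89e-05), 2.93 (SE 0.48, adjusted p = 8.19e-05) and 2.02 (SE 0.46, adjusted p = 0.00466). For Col3a1 they were 3.36 (SE 0.47, adjusted p = 6.09e-06), 2.76 (SE 0.47, adjusted p = 0.00013), 2.45 (SE 0.46, adjusted p = 0.000351) and 1.56 (SE 0.44, adjusted p = 0.0205). The Col3a1 rise in the siHAS2-LNP arm lost its call when any of the 3 siHAS2-LNP mice or CCl4 + siHAS2-LNP mouse 2 was left out.

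The difference between arms was tested as an interaction. For 4MU by CCl4, Col1a1 had -1.67 (SE 0.74, adjusted p = 0.159), Col1a2 -1.23 (SE 0.65, adjusted p = 0.232) and Col3a1 -0.60 (SE 0.63, adjusted p = 0.570). For siHAS2-LNP by CCl4 they had -0.85 (SE 0.70, adjusted p = 0.688), -0.92 (SE 0.62, adjusted p = 0.605) and -0.89 (SE 0.60, adjusted p = 0.605). Of the 27 genes, 2 passed for 4MU by CCl4 (5.67% of all genes passed in either direction) and 0 for siHAS2-LNP by CCl4 against the siLuc-LNP arm (0.0354%). For siHAS2-LNP, 3 of 27 had an unadjusted p under 0.05, against 11.4% of all genes, and DESeq2 and limma-voom also called 0. The pair for 4MU were Col20a1 and Col17a1. Col20a1 was at 13.4, 8.32 and 11.9 CPM in 4MU and at 5.68, 4.39, 4.88 and 7.62 CPM in CCl4 + 4MU mice, and its interaction was 1.78 (SE 0.45, adjusted p = 0.0299). Col17a1, a transmembrane collagen of epithelial hemidesmosomes, was at 0.154, 0.625 and 0.253 CPM in 4MU and at 2.07, 1.94, 0.850 and 1.1 CPM in CCl4 + 4MU mice, while CCl4 and control mice had 0.377 to 1.02 CPM. Its interaction was 2.94 (SE 0.80, adjusted p = 0.0356). Without CCl4 + 4MU mouse 1 or mouse 4, 0 of the 27 genes passed. The calls over all 14114 genes then came down from 800 to 123 higher and 121 lower, and to 121 and 125. Both collagen calls were also lost without CCl4 mouse 2, which leaves 1 CCl4 mouse. Among the 5 hepatocyte genes 2 were higher in this interaction, and their part in it was not tested. Over the other mice left out, 1 to 3 passed.

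A further question was whether chains that build the same molecule or fibre moved in step. The ratio of 2 genes in a library does not depend on its scaling. Ratios were tested by permuting the CCl4 label within arms (100000 resamples, 2-sided), with adjustment over 6 ratios, and they use the same libraries as the CCl4 effect above. The Col1a1 to Col1a2 ratio of reads per kb had a median of 0.370 (range 0.292 to 0.524) in the 13 mice without CCl4 and of 0.820 (0.709 to 1.05) in the 14 with it. All 14 lay above all others, and the ratio rose 2.16-fold (log2 difference 1.11, permutation p = 1e-05, the smallest the resamples can give, adjusted p = 3e-05). As background, the type I molecule holds more α1 than α2 chains.

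The Col3a1 to Col1a1 ratio went from a median of 5.20 (3.48 to 6.41) to 1.84 (1.16 to 2.37), lower in 14 of 14 CCl4 mice, a log2 difference of -1.57 (permutation p = 2e-05, adjusted p = 4e-05). The Col5a1 to Col1a1 ratio went from 0.858 (0.498 to 1.68) to 0.137 (0.0800 to 0.202), also lower in 14 of 14, a log2 difference of -2.82 (permutation p = 1e-05, adjusted p = 3e-05). The Col6a3 to Col6a1 ratio went from 0.327 (0.196 to 0.686) to 0.772 (0.288 to 1.07), with 8 of 14 CCl4 mice above all others, a log2 difference of 1.02 (permutation p = 0.00026, adjusted p = 0.00039).

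The neighbouring chains of type IV and the other pair of type VI gave smaller values. The Col4a1 to Col4a2 ratio had a median of 1.58 (1.14 to 1.92) without and 1.53 (1.24 to 1.74) with CCl4, a log2 difference of -0.03 (permutation p = 0.549, adjusted p = 0.549) beside an SD of 0.18 in each set of mice. Col6a2 to Col6a1 went from 0.451 (0.392 to 0.620) to 0.532 (0.432 to 0.631), a log2 difference of 0.16 (permutation p = 0.0467, adjusted p = 0.056), and it passed when any of 7 single mice was left out. Col6a1 and Col6a2 lie on the same strand of chromosome 10, with 83890 bases between them.

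**Figure D4:**
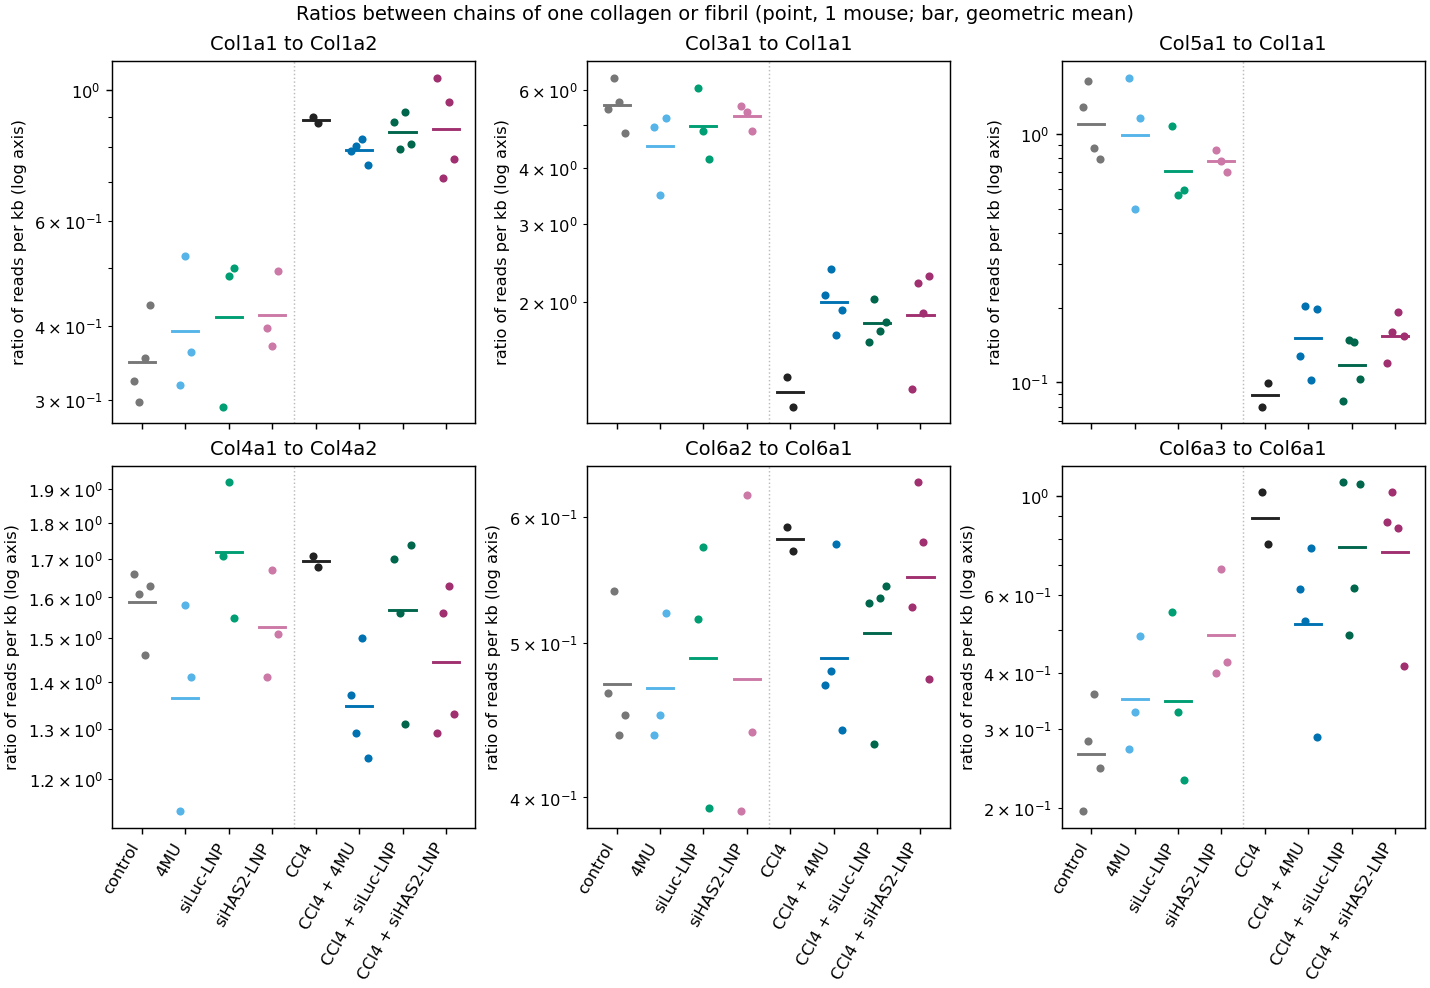
Ratio of reads per kb between chains (log axes) in each of 27 mice by group, with bars at geometric means. Col1a1 to Col1a2 lies higher, and Col3a1 to Col1a1 and Col5a1 to Col1a1 lower, in all 14 CCl4 mice, and Col4a1 to Col4a2 overlaps.

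Among CCl4 mice, the treated groups were compared with CCl4 mice and with CCl4 + siLuc-LNP mice, which received particles without a HAS2 siRNA. The comparisons with CCl4 share the same 2 mice, so their values are given side by side only. In CCl4 + siHAS2-LNP against CCl4, 10 of 27 collagen genes were lower and 2 higher (7.33% and 7.11% of all genes). The median log2 fold change of the 27 was -1.04, against 0.02 for all genes. The 10 were 4 fibrillar (Col1a1, Col1a2, Col5a1, Col5a2), 3 type VI (Col6a1, Col6a2, Col6a3), 2 type IV (Col4a1, Col4a2) and the fibril-associated Col16a1. Col20a1 and Col5a3 were higher. The 12 calls came down to 0 without CCl4 mouse 2, which had the higher level of all 10 lower genes in its group, and then 6 of 27 had an unadjusted p under 0.05. In the same fit the calls over all genes fell to 52 higher and 56 lower of 14114. The sum of 5 Kupffer cell genes was 89.2 to 124 CPM in CCl4 + siHAS2-LNP, 112 to 195 in CCl4 + siLuc-LNP and 242 to 268 in CCl4 mice, and its part in the result, like that of the myofibroblast genes above, was not tested.

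Col1a1 was at 69.6, 77.0, 49.3 and 48.1 CPM in CCl4 + siHAS2-LNP mice, all lower than the 2 CCl4 mice (154 and 273). It fell by 1.81 (SE 0.52, adjusted p = 0.0229), and the value was -1.37 without CCl4 mouse 2. Col1a2 was at 59.8, 98.2, 46.7 and 56.8 CPM, also below both CCl4 mice, and fell by 1.73 (SE 0.47, adjusted p = 0.0158), or had -1.27 without that mouse. Col3a1 was at 83.1, 159, 87.4 and 103 CPM against 196 and 297. Its log2 fold change of -1.19 (SE 0.46, adjusted p = 0.0804) did not pass, though it did with only these 2 groups in the fit (-1.21, adjusted p = 0.0159) and with no filter on low counts (-1.21, adjusted p = 0.000375). The Col1a1 call was also lost without CCl4 + siHAS2-LNP mouse 3 or mouse 4, and the Col1a2 call without mouse 3.

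Ordered by size, the other lower genes were Col6a3 (-1.46, SE 0.38, adjusted p = 0.0126), Col6a2 (-1.41, SE 0.31, adjusted p = 0.00479), Col5a2 (-1.41, SE 0.35, adjusted p = 0.0110), Col16a1 (-1.38, SE 0.34, adjusted p = 0.0106) and Col6a1 (-1.34, SE 0.37, adjusted p = 0.0181). They were followed by Col5a1 (-1.07, SE 0.31, adjusted p = 0.0213), Col4a1 (-1.04, SE 0.29, adjusted p = 0.0196) and Col4a2 (-0.82, SE 0.27, adjusted p = 0.0427). Without CCl4 mouse 2 these 8 values were -0.92, -0.64, -0.88, -1.36, -0.54, -0.42, -0.62 and -0.39 in the same order. The Col4a2 call was also lost with limma-voom (-0.76) and without CCl4 + siHAS2-LNP mouse 1, 3 or 4, the Col5a1 call without mouse 4 and the Col6a1 call without mouse 3.

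Col20a1 was at 3.72, 4.88, 6.34 and 2.67 CPM in CCl4 + siHAS2-LNP mice against 1.61 and 0.904 in CCl4 mice, higher by 1.86 (SE 0.37, adjusted p = 0.00266). Col5a3 was at 14.4, 17.7, 22.0 and 23.9 CPM against 7.25 and 6.14, higher by 1.54 (SE 0.36, adjusted p = 0.00744). Both were among the 4 genes that were lower in the mean CCl4 effect, and control mice had 7.30 to 9.86 and 12.6 to 18.8 CPM. Without CCl4 mouse 2 the values were 1.46 and 1.39 and did not pass.

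In CCl4 + 4MU against CCl4 mice, 2 of 27 genes were lower and 3 higher (10% and 8.28% of all genes), and the median of the 27 was -0.35 against 0.04. Of the markers, 3 of 5 hepatocyte genes were higher and 1 of 3 tested myofibroblast genes was lower, and their part in the result was not tested. Col8a1 was at 0.559, 0.848, 1.07 and 0.178 CPM against 1.70 and 3.73 in CCl4 mice and fell by 2.04 (SE 0.66, adjusted p = 0.0339). Col5a2 was at 18.6, 13.9, 23.8 and 8.51 CPM against 25.1 and 48.5 and fell by 1.18 (SE 0.35, adjusted p = 0.0224). Col20a1 rose by 2.19 (SE 0.37, adjusted p = 0.000765), Col17a1 by 1.85 (SE 0.60, adjusted p = 0.0330) and Col5a3 by 1.32 (SE 0.36, adjusted p = 0.0133). The 5 calls became 8 without CCl4 + 4MU mouse 3, when 1207 of all genes were higher and 1393 lower. They became 3 without CCl4 + 4MU mouse 1 (896 and 1068) or mouse 4 (710 and 937). The 5 calls were lost without CCl4 mouse 2, which leaves 1 CCl4 mouse. The values were then -1.39, -0.66, 1.79, 1.71 and 1.17. The median of the 27 was -0.21 in that fit and -0.70 without CCl4 mouse 1. The Col5a2 and Col8a1 calls were also lost without CCl4 + 4MU mouse 4, which had the lowest level of both. The Col8a1 call was lost with the replicate number as a block (-2.04, adjusted p = 0.0528), the Col5a2 call with only these groups in the fit (-1.20, adjusted p = 0.0613) and the Col17a1 call with limma-voom (1.69, adjusted p = 0.0508). The Col8a1 call further rested on CCl4 + 4MU mouse 1, and the Col17a1 call on CCl4 mouse 1 and CCl4 + 4MU mice 1 and 2.

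The type I and III chains did not pass in edgeR in that comparison. Col1a1 was at 91.0, 56.3, 143 and 30.4 CPM (log2 fold change -1.41, SE 0.52, adjusted p = 0.0606). Col1a2 was at 104, 63.1, 157 and 36.8 CPM (-1.27, SE 0.47, adjusted p = 0.0593), and Col3a1 at 177, 125, 227 and 54.9 CPM (-0.76, SE 0.46, adjusted p = 0.255). All 4 mice lay below both CCl4 mice for Col1a1, while Col1a2 and Col3a1 overlapped. Without CCl4 + 4MU mouse 3, the highest of the group, Col1a1 and Col1a2 passed with -1.85 and -1.68, and Col1a2 also passed without CCl4 mouse 1. Col1a1 passed with limma-voom (-1.57, adjusted p = 0.0383), and Col1a1 and Col1a2 passed in edgeR with no filter on low counts (-1.40 and -1.26).

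The non-targeting particles gave no call. In CCl4 + siLuc-LNP against CCl4, 0 of 27 genes passed in edgeR (0.0567% of all genes were higher and 0.191% lower), with 1 at an unadjusted p under 0.05 (14.2% of all genes). DESeq2 called 1 and limma-voom 0, and their shares of all genes are not given here. Col1a1 was at 277, 95.4, 75.0 and 162 CPM in CCl4 + siLuc-LNP mice, a range that holds both CCl4 mice (log2 fold change -0.49, SE 0.53, adjusted p = 0.735). Col1a2 was at 283, 108, 73.8 and 180 CPM (-0.43, SE 0.48, adjusted p = 0.738) and Col3a1 at 420, 182, 121 and 274 CPM (0.01, SE 0.47, adjusted p = 0.996). Without CCl4 + siLuc-LNP mouse 4, 1 gene passed as higher, when 447 of all 14114 genes were higher and 615 lower.

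Against CCl4 + siLuc-LNP, CCl4 + siHAS2-LNP mice had 2 of 27 genes higher and 0 lower in edgeR (0.786% and 0.305% of all genes), with 16 at an unadjusted p under 0.05 (16.6% of all genes were) and a median of -0.62. DESeq2 called 2 higher and 4 lower (Col3a1, Col5a2, Col4a1 and Col4a2), and limma-voom 2 higher and 0 lower. The shares of all genes that DESeq2 and limma-voom called are not given here, so these counts have no such reference. With no filter on low counts, edgeR called 10 lower, Col1a1, Col1a2 and Col3a1 among them, and 1 higher, when 1.19% of 31177 genes were lower and 0.914% higher. With only these 2 groups in the fit it called 0. Col1a1 had -1.32 (SE 0.45, adjusted p = 0.135), Col1a2 -1.30 (SE 0.40, adjusted p = 0.104) and Col3a1 -1.20 (SE 0.39, adjusted p = 0.121), and for each gene the mice overlapped. Col5a3 was higher by 1.18 (SE 0.28, adjusted p = 0.0400), at 14.4 to 23.9 against 3.88 to 11.7 CPM. Col11a2 was higher by 1.41 (SE 0.35, adjusted p = 0.0467), at 1.17, 1.17, 1.45 and 1.47 against 0.392, 0.540, 0.540 and 0.485 CPM. Leaving out any of the 8 mice lost the Col11a2 call, and 6 of the 8 lost the Col5a3 call. Without CCl4 + siLuc-LNP mouse 3, 3 genes were lower, Col1a2 among them, and 0 higher. That mouse was the lowest of its group for Col1a1, Col1a2 and Col3a1. Over all genes 98 were then lower and 132 higher.

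CCl4 + 4MU against CCl4 + siLuc-LNP gave 0 of 27 calls in edgeR (0.34% of all genes were higher and 0.283% lower), with 8 at an unadjusted p under 0.05 (19.1% of all genes). DESeq2 called 1 and limma-voom 0, and their shares of all genes are not given here. With no filter on low counts 7 passed, among them Col1a1 (-0.91), Col1a2 (-0.83) and Col3a1 (-0.76), when 1.68% of genes were higher and 1.66% lower. Col1a1 had a log2 fold change of -0.92 (SE 0.45, adjusted p = 0.259), Col1a2 of -0.84 (SE 0.40, adjusted p = 0.252) and Col3a1 of -0.77 (SE 0.39, adjusted p = 0.279). Without CCl4 + siLuc-LNP mouse 3, 1 gene was higher and 2 lower, when 339 and 584 of all 14114 genes were. Without mouse 2 of that group 1 was higher, beside 195 higher and 366 lower over all genes.

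**Figure D5:**
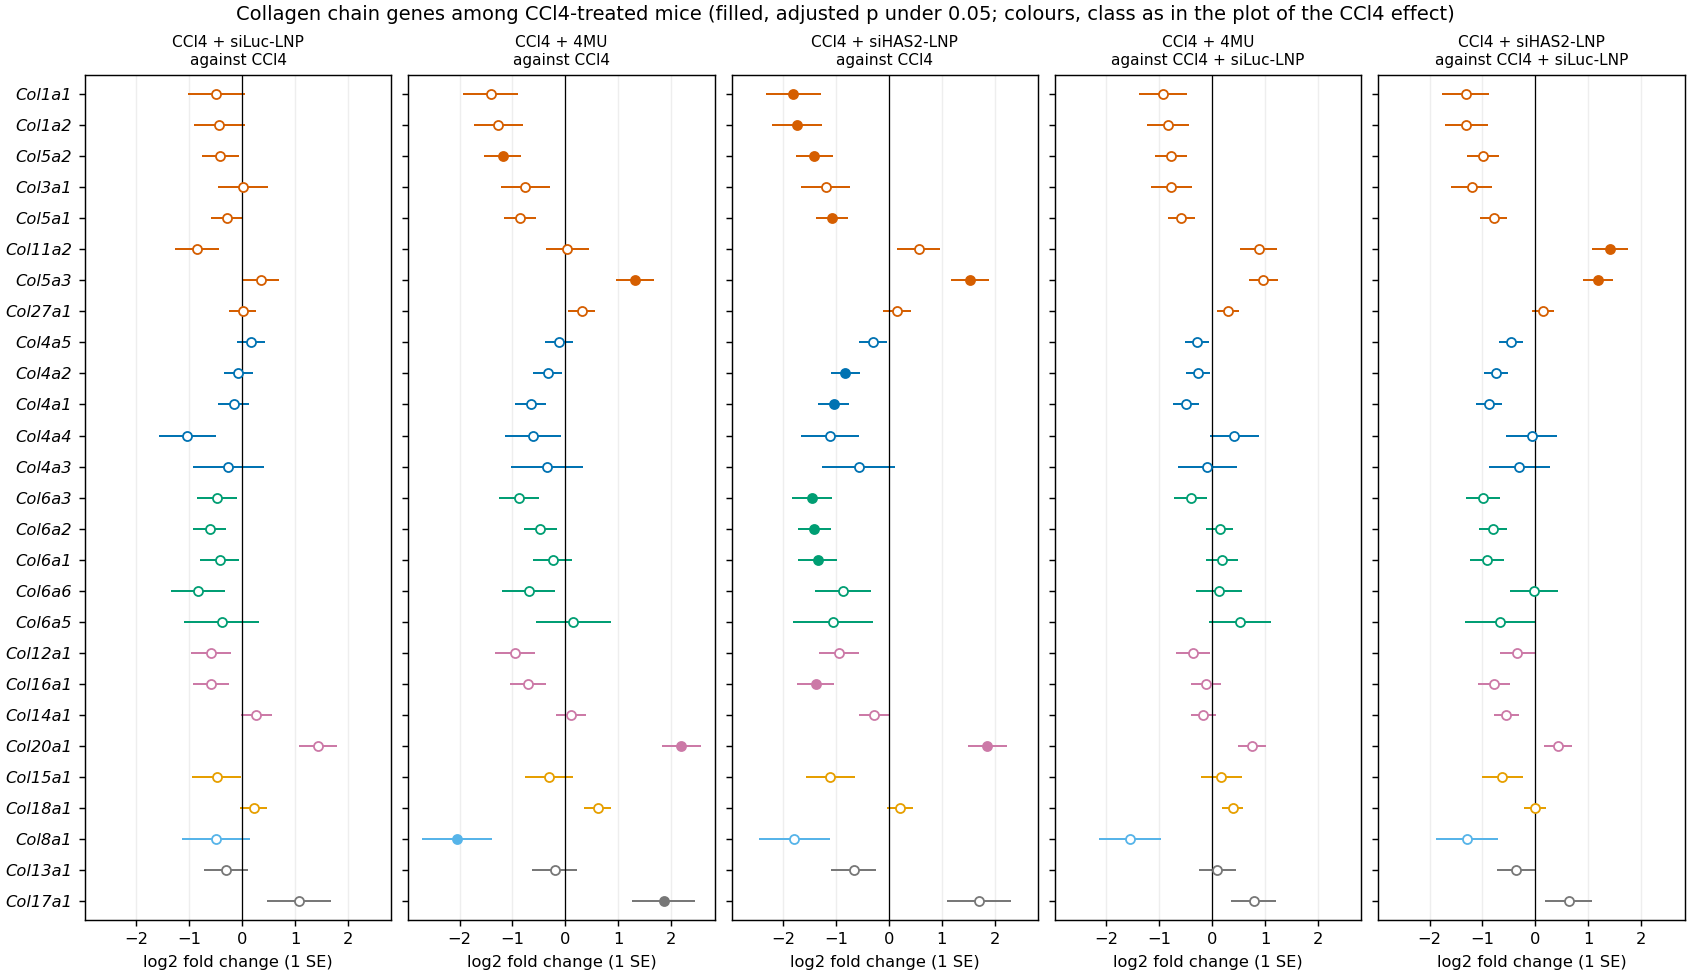
Log2 fold changes with 1 SE of the 27 tested genes in 5 comparisons among CCl4 mice, in the order and colours of the plot of the CCl4 effect. Filled points passed an adjusted p of 0.05, and 12 are filled for CCl4 + siHAS2-LNP against CCl4, 5 for CCl4 + 4MU against CCl4, 2 for CCl4 + siHAS2-LNP against CCl4 + siLuc-LNP and 0 in the other 2 panels.

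Without CCl4 no collagen gene passed between treatments in edgeR, DESeq2 or limma-voom. 4MU against control gave 0 of 27 (0.00709% of all genes), with 1 at an unadjusted p under 0.05 against 6.84% of all genes. Healthy siLuc-LNP mice set against control gave 0 (0.213%), with 6 such genes against 6.80%. With no filter on low counts Col1a1, Col3a1 and Col14a1 were called higher, when 0.234% of all genes were. For siHAS2-LNP against siLuc-LNP it was 0 (0.0425%), with 2 against 8.94%. Col1a1 had log2 fold changes of 0.26 (SE 0.52), 1.11 (SE 0.51) and -0.47 (SE 0.55) in this order, Col1a2 of -0.04 (SE 0.45), 0.83 (SE 0.44) and -0.39 (SE 0.47), and Col3a1 of -0.16 (SE 0.43), 0.92 (SE 0.42) and -0.32 (SE 0.45).

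The 17 genes under a mean of 10 counts did not exceed 31 counts in any library. Of these, 7 had at most 3 counts in every library and Col19a1 had 0 in all 27. Col22a1, a fibril-associated chain of tissue junctions, had 0 counts in the 4 control and 3 siHAS2-LNP mice and at most 2 in the 4MU and siLuc-LNP mice. It had 13 and 15 counts in CCl4, 17, 7, 9 and 14 in CCl4 + 4MU, 13, 6, 11 and 9 in CCl4 + siLuc-LNP and 5, 12, 1 and 5 in CCl4 + siHAS2-LNP mice. Col11a1, the partner of Col5a1 in minor fibrillar molecules, had at most 2 counts in any mouse without CCl4 and 0 to 13 with it. With no filter on low counts, edgeR called Col22a1 in the mean CCl4 effect and in all 4 arms, Col11a1 in the mean effect and 3 arms, and Col7a1, a chain of anchoring fibrils, in the mean effect and the siHAS2-LNP arm. Of all 31177 genes 13.8% were then higher and 11.8% lower in the mean effect, and 3.7% to 8.19% higher in the arms. The cartilage collagens Col2a1, Col9a1 and Col9a2 were at or near 0 everywhere.

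Collagen chains need a set of other proteins to be modified, folded, exported, cleaved and crosslinked. Of 47 genes for these steps, 39 were tested, and 28 were higher and 3 lower in the mean CCl4 effect (26.3% and 25.6% of all genes, as above), with a median of 0.60. All 5 lysyl oxidases, which crosslink fibres, rose. Lox rose by 4.09 (SE 0.42, adjusted p = 1.43e-08), Loxl1 by 2.33, Loxl2 by 2.25, Loxl4 by 1.61 and Loxl3 by 0.58. The collagen chaperones Serpinh1 and Fkbp10 rose by 1.54 (SE 0.15, adjusted p = 8.62e-09) and 1.95 (SE 0.21, adjusted p = 3.77e-08). Plod2, a lysyl hydroxylase, rose by 1.5, the procollagen N-proteinase Adamts2 by 1.32 and Pcolce, an enhancer of C-propeptide cleavage, by 1.23. Ddr1, a receptor for collagen, rose by 3.22 (SE 0.17, adjusted p = 1.11e-13). The 3 lower genes were Dcn, a proteoglycan on fibrils (-0.46), P4ha2, a prolyl hydroxylase subunit (-0.40), and Mia3, an export factor (-0.30).

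In CCl4 + siHAS2-LNP against CCl4, 12 of the 39 were lower and 0 higher (7.33% and 7.11% of all genes), with a median of -0.59, and in CCl4 + 4MU against CCl4 9 were lower and 0 higher (10% and 8.28%), with a median of -0.28. These comparisons share the CCl4 mice. All of these calls but that of Pcolce2 with siHAS2-LNP were lost without CCl4 mouse 2, which leaves 1 CCl4 mouse. Serpinh1 fell by 1.29 (SE 0.31, adjusted p = 0.00884) and by 1.18 (SE 0.31, adjusted p = 0.0117), and Loxl2 fell by 1.25 (SE 0.38, adjusted p = 0.0307) and 1.29 (SE 0.38, adjusted p = 0.0217). Lox fell by 2.21 (SE 0.66, adjusted p = 0.0237) with 4MU, and Pcolce2, a paralogue of Pcolce, fell by 3.29 (SE 0.50, adjusted p = 0.000535) with siHAS2-LNP. Against CCl4 + siLuc-LNP, 2 of 39 were lower with siHAS2-LNP (0.305% of all genes), Lum (-1.04, SE 0.26, adjusted p = 0.0483) and Pcolce (-0.86, SE 0.18, adjusted p = 0.0318), and 1 with 4MU (0.283%). The former became 0 without CCl4 + siHAS2-LNP mouse 2, 3 or 4 or CCl4 + siLuc-LNP mouse 1, 1 without CCl4 + siHAS2-LNP mouse 1 or CCl4 + siLuc-LNP mouse 4 and 4 without CCl4 + siLuc-LNP mouse 3. The latter ran from 0 to 4 over mice left out. In CCl4 + siLuc-LNP against CCl4 1 of 39, Pcolce2, was lower, except without CCl4 + siLuc-LNP mouse 3.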

How the data were processed

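Whole liver RNA of 27 mice was sequenced by the authors after poly(A) selection with a directional kit. Reads were trimmed with Trimmomatic 0.39, aligned with HISAT2 to GRCm39 and assigned to genes with featureCounts in R 3.4.2, leaving out multimapping reads. The strand setting of the counting and the HISAT2 version are not given in the sources used here. The authors deposited raw counts for 55414 genes in a table of the whole series. Of the IDs, 54749 matched GENCODE vM39 and 665 did not.

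Groups were taken from the sample labels. Replicates are separate mice. Genes averaging 10 counts or more were fitted in 1 edgeR 4.0.16 quasi-likelihood model of all 8 groups with TMM scaling (R 4.3.3), and p-values were adjusted by Benjamini-Hochberg over 14114 genes. The SE is the absolute log2 fold change over the square root of F. Ratios were taken as log2 of counts plus 0.5. Totals of 7044386 to 29425937 counts place a floor of 3 counts at 0.102 to 0.426 CPM, for counting error only.

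Col1a1, Col1a2 and Col3a1 are named in each comparison, and every tested collagen gene that passed is named in the mean CCl4 effect and among CCl4 groups. Genes and lists were chosen with earlier results of these data known. DESeq2 1.42.0, limma-voom (limma 3.58.1), other scaling and filters, fits of the compared groups only, the replicate number as a block and leaving out each mouse were alternatives. Scripts were tested on simulated data.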

Additional observations from a re-analysis of the deposited data

Results flagged for a closer look

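Col4a2 was at 7.85 CPM in control mouse 2, against 14.9 to 15.9 CPM in the other 3 control mice, a gap that set this mouse apart from its group. Col11a2 was at 1.39 CPM in CCl4 + 4MU mouse 4, against 0.688 to 0.798 CPM in the other 3 mice of that group. These were 2 of 108 gene and group pairs examined, and chance sets a sample apart in this way in about 1 of 20 groups.

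The CCl4 effect differed between the 4MU and the untreated arm for Col20a1, with an interaction of 1.78 on the log2 scale (edgeR adjusted p = 0.0299), and for Col17a1, with 2.94 (edgeR adjusted p = 0.0356). These were 2 of 27 tested genes, when 5.67% of all genes passed in either direction, and limma-voom called 1. Both calls were lost without CCl4 mouse 2, without CCl4 + 4MU mouse 1 or without CCl4 + 4MU mouse 4.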

How the results depend on the processing

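The counts of collagen genes called in the mean CCl4 effect and in CCl4 against control, CCl4 + 4MU against 4MU and CCl4 + siLuc-LNP against siLuc-LNP stayed within 1.5 times of their reported values under each alternative run. Leaving out each mouse gave 20 to 22 in the mean effect. It gave 14 to 17, 13 to 16 and 6 to 11 in the 4MU, siLuc-LNP and siHAS2-LNP arms. The shares over all genes in these fits are not given here. It gave 6 to 11 in the siHAS2-LNP arm, 0 to 8 in CCl4 + 4MU against CCl4, 0 to 13 in CCl4 + siHAS2-LNP against CCl4, 0 to 1 in CCl4 + siLuc-LNP against CCl4, 0 to 3 in both comparisons with CCl4 + siLuc-LNP and 0 to 3 in the 4MU interaction. With no filter on low counts, 16 genes were called in the siHAS2-LNP arm (10 with it, and 13 of the 16 are among the 27 tested genes). Over all 31177 genes 3.7% were then higher and 2.61% lower. In CCl4 + 4MU against CCl4 the count was 11 (5 with the filter, shares 4.28% and 4.18%). In CCl4 + siLuc-LNP against CCl4 it was 1 (0, 0.712% and 0.658%). In CCl4 + siHAS2-LNP against CCl4 + siLuc-LNP it was 11 (2, 0.914% and 1.19%), and in CCl4 + 4MU against CCl4 + siLuc-LNP 7 (0, 1.68% and 1.66%). It was 3 in siLuc-LNP against control (0, 0.234% and 0.225%) and 7 in the 4MU interaction (2, 2.54% and 1.91%). DESeq2 called 1 in CCl4 + siLuc-LNP against CCl4, 6 in CCl4 + siHAS2-LNP against CCl4 + siLuc-LNP and 1 in CCl4 + 4MU against CCl4 + siLuc-LNP, and limma-voom called 1 in the 4MU interaction. For DESeq2 and limma-voom the shares over all genes are not given here. For CCl4 + siHAS2-LNP against CCl4 + siLuc-LNP, DESeq2 size factors in edgeR gave 1, edgeR's own expression filter 1 and a fit of these groups alone 0. With the replicate number as a block that count was 0, and the block moved no other count by over 1.5 times. Besides the calls named above, the block lost those of Col5a3 and Col11a2 in that comparison. Over 83 pairs of mice with the same number, correlations of deviations ran from -0.347 to 0.361 (18 over 0.1), with a median of -0.019. Over 234 pairs with a different number the median was -0.013. These correlations cannot exclude that some mice with the same number share a batch or litter. Col3a1 in CCl4 + siLuc-LNP against CCl4 (0.01) was -0.12 with limma-voom and -0.36 to 0.34 over mice left out, and Col1a2 there ran from -0.84 to 0.0495. The Col6a2 to Col6a1 log2 difference ran from 0.12 to 0.21. The collagen pathway genes were chosen after seeing the data. Leaving out each treated mouse gave 6 to 9 and 7 to 12 of their calls in CCl4 + 4MU and CCl4 + siHAS2-LNP against CCl4, and 0 to 1 in CCl4 + siLuc-LNP against CCl4. All but that of Pcolce2 were lost without CCl4 mouse 2. Each comparison with CCl4 + siLuc-LNP gave 0 to 4 over all mice left out. The cause of these changes was not tested.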
